A study of Mus musculus with 63 samples.

Results

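The tumours described here are 17 small intestinal tumours that had been cut into their differently coloured clones before RNA sequencing, 7 from the segment labelled SI10 and 10 from the segment labelled SI20. The choice used the labels and no measured value. A divided tumour entered when both of its clone libraries, a and b, carried the same segment label, which gave 34 of the 63 libraries of the series. Of the 20 divided tumours, 3 were set aside, namely tumour 22 of the female mouse, whose clones carried different segment labels, and tumours 29 and 30 of the female mouse, labelled SI30. All tumours came from 2 Apchet mice, 1 female and 1 male, which carried a tamoxifen-inducible Cre recombinase driven by the Villin promoter, active in intestinal epithelium, 1 floxed Apc allele and the R26R-Confetti colour reporter. Both mice had received 4 mg of tamoxifen when older than 8 weeks and the mutagen ENU at 200 mg/kg 10 days later, so that treatment and genotype were shared by every group. The female mouse gave 3 SI10 and 4 SI20 tumours and the male mouse 4 and 6, and sex and mouse cannot be told apart. Tumours of 1 mouse share that animal, so the p-values measure the spread between tumours of these 2 mice. A further 23 tumours of the same mice, 12 of SI10 and 11 of SI20, had been sequenced undivided and serve as a comparison.

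The small intestine changes its work along its length. The duodenum, next to the stomach, takes up iron and calcium and holds homeobox and GATA factors that keep its identity, whereas the ileum, at the far end, takes up bile acids and vitamin B12 and is rich in Paneth cells, which secrete antimicrobial defensins at the crypt base. The labels do not say what the number in a segment name stands for. The comparison below asks which genes differed between tumours of the 2 segments, and every difference is SI20 minus SI10.

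Expression was measured as normalised counts, here averaged over the clones of a tumour on a log2(value + 1) scale, and fold changes are on that scale. The epithelial markers Epcam and Vil1 were present in all 34 libraries, where the lowest library had 31343.5 and 16496 normalised counts. The depth estimated from the step between low values ran from 27049200 to 48311000 reads per SI10 tumour and from 22370500 to 41615700 per SI20 tumour, and did not separate the segments (exact permutation within mouse, two-sided, p = 0.943). The shares of mitochondrial transcripts (p = 0.482) and of Rn18s (p = 0.338) gave no detectable difference in the same exact permutation test. One SI10 tumour stood apart. Tumour 19 of the male mouse, in both clones, had Hoxa10 at 1767 and 601 normalised counts where no other of the 17 tumours exceeded 30.1 as the mean of its clones. Clu, which encodes clusterin, was at 6742 and 10036 in this tumour, where the lowest clone mean of the 6 other SI10 tumours was 64141. It also had the lowest mitochondrial share of the 17 tumours, 1.64%, and the highest Rn18s share, 11.6%, and the part of these in its values was not tested. Results that rest on this tumour are therefore also given without it. As the tumour was singled out after its values were seen, calls gained without it are a description and no independent support.

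Between the segments, 46 of 16436 genes differed at an adjusted p under 0.05 in limma. Of these, 30 were higher in SI20, 0.183% of the genes tested, and 16 were lower, 0.0973%. All 46 differed in the same direction in both mice. As they were chosen on both mice together, this is a description and no independent support. At an unadjusted p under 0.05, 8.44% of all genes were higher and 5.9% lower in SI20, and the median difference over all genes was 0.01. Complete separation of the 7 SI10 from the 10 SI20 values occurred in 9 genes, 0.0548% of those tested, and 7 of the 46 were among them: Osr2, Slc34a2, Slc23a1, Pmp22 and Guca2a above, Pdx1 and Ptpn18 below. Without male tumour 19 the count was 48, with 24 in each direction, and 35 of the 46 genes kept their call. The number of calls moved with single tumours, to 13 without female tumour 19, 14 without female tumour 20, 22 without male tumour 22, 26 without male tumour 28 or 31, 28 without male tumour 26, 29 without female tumour 27, 30 without female tumour 28, 125 without male tumour 20 and 215 without female tumour 23. In each of these fits all 46 differences kept their sign, though the tumours that remained had also served to choose the genes. Of the 25 called genes named by rule, 9 were called with any 1 tumour left out, namely Pdx1, Osr2, Slc34a2, Slc23a1, Slc5a12, Pmp22, Guca2a, Scarb1 and Ecel1. The other 16 all lost their call without female tumour 19, 15 of them without female tumour 20 and 11 without male tumour 22. Without male tumour 19 the call was lost for Chst10, Clec7a, Defa-ps6 and Reg4.

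**Figure D1:**
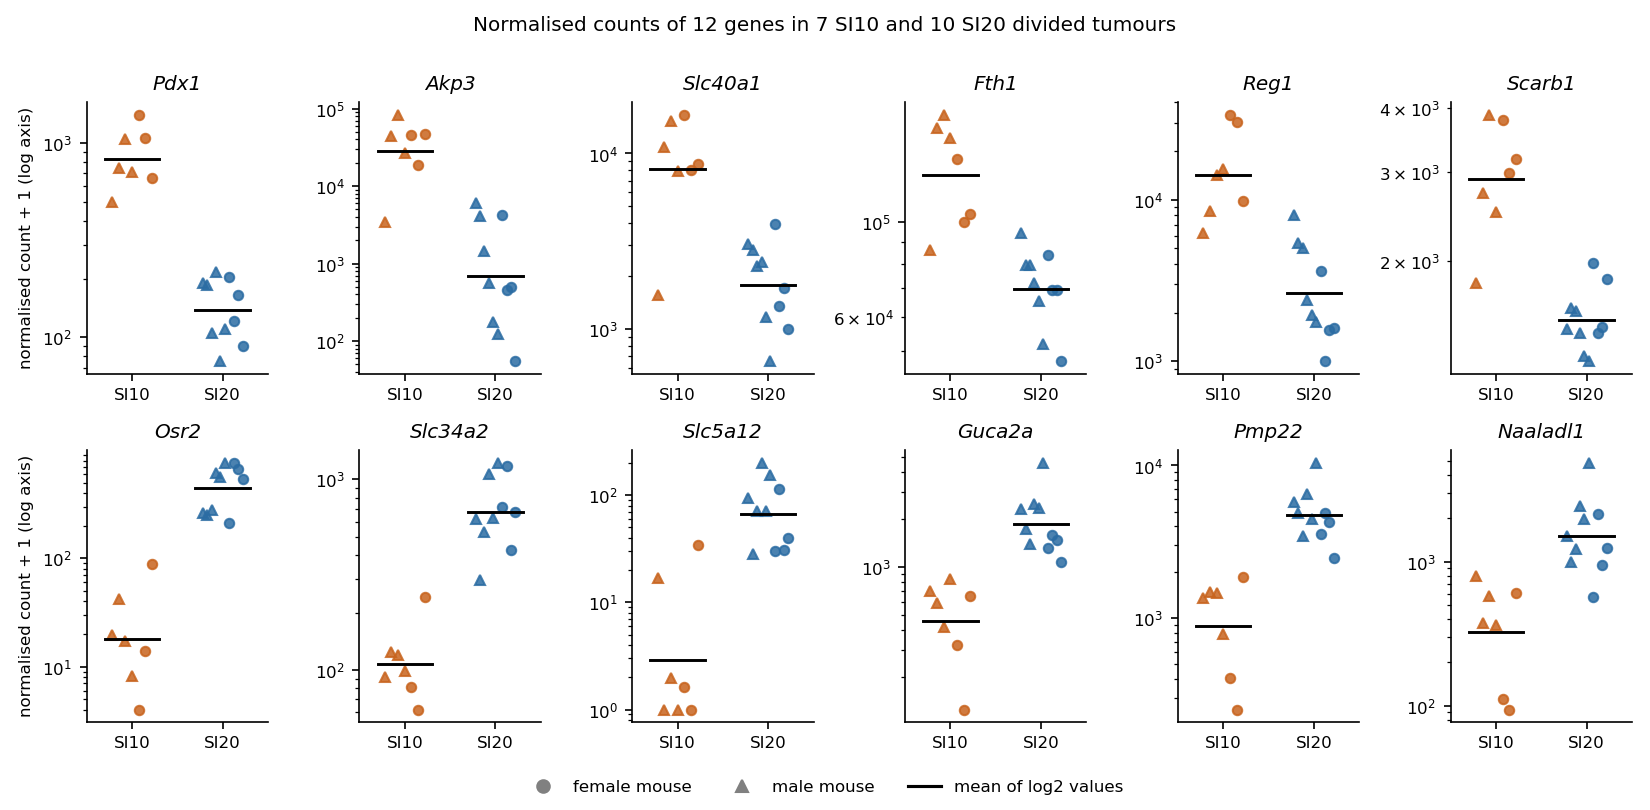
Normalised counts plus 1 on a log axis for 12 genes in each of the 7 SI10 (orange) and 10 SI20 (blue) divided tumours, circles for the female and triangles for the male mouse, with bars at the mean of the log2 values. Pdx1, Osr2, Slc34a2, Guca2a and Pmp22 do not overlap between the segments, whereas the lowest SI10 tumour for Akp3 and Slc40a1, male tumour 19, lies within the SI20 range.

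The most significant gene was Pdx1, the homeobox factor of the pancreas and duodenum (GRCm39 chr5:147206769-147212658, plus strand). Its level was 499 to 1405 (median 741) normalised counts in SI10 and 74.2 to 217 (median 143) in SI20. Every SI10 tumour was above every SI20 tumour, and the difference of -2.58 ± 0.25 (SE) on the log2 scale corresponds to a 6-fold higher level in SI10 (adjusted p = 0.000103). Pdx1 was called with any single tumour left out. The 2 clones of a tumour typically lay 0.34 log2 units apart for this gene, the median over the 17 tumours.

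The largest difference among the 46 genes was that of Akp3, an intestinal alkaline phosphatase known as the duodenal form (chr1:87052695-87055634, plus strand). Its level was 3438 to 83835 (median 44782) in SI10 and 53.7 to 6087 (median 528) in SI20, a log2 difference of -5.36 ± 0.94 (adjusted p = 0.0192). The groups overlapped through male tumour 19, at 3438, which lay below the 3 SI20 tumours with the most Akp3. In the male mouse the SI20 tumours alone spread from 123 to 6087. Without male tumour 19 the difference was -5.93 (adjusted p = 0.00576). The call was lost without male tumour 22 (-5.10), female tumour 19 (-5.20) or female tumour 20 (-5.44), and in the b clones alone (-4.95).

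The promoter of Akp3 is shown beside that of Enpp7, an alkaline sphingomyelinase, as the genes with the largest difference in each direction that had a single RefSeq promoter entry. Of the 46 genes, 32 had an entry. Printed are the 250 bases before the annotated start in GRCm38.p6, on the plus strand, with the GATA motif AGATAA in capitals where it occurs on either strand. The Akp3 stretch is chr1:87124704-87124953 and the Enpp7 stretch chr11:118987931-118988180.
Akp3: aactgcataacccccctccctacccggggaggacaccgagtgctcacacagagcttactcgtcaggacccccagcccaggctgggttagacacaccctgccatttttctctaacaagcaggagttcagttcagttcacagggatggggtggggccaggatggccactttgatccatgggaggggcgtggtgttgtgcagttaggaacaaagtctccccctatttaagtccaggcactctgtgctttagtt
Enpp7: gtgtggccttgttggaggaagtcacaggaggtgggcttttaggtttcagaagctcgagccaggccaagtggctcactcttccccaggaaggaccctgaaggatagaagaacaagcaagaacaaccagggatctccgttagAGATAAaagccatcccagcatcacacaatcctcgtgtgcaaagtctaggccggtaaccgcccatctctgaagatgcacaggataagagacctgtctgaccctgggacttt
AGATAA occurred in this window in 5 of the 32 promoters, 4 of 18 for genes higher in SI20 and 1 of 14 for genes lower, against 10.3% of 27025 promoters. The motif TTTATNG of CDX factors was in 2 of the 32 (10.2% of all), and the motif CAAAGTCC of HNF4 in 0 of the 32 (1.22% of all). No motif overlapped another in the 2 stretches shown.

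Of the 21 proximal small intestine genes, all tested, 2 were lower in SI20, Pdx1 and Slc40a1, and none was called in the other direction. The list median was -0.24, against 0.01 for all genes. Slc40a1, the iron exporter ferroportin, was 1552 to 16669 (median 8669) in SI10 and 651 to 3954 (median 1998) in SI20, a difference of -2.18 ± 0.44 (adjusted p = 0.0423). It was called in 4 of the 17 fits that left out 1 tumour, and the fit without male tumour 19, in which Slc40a1 was 1552, gave -2.59 (adjusted p = 0.00199). The genes upstream of it in iron uptake gave large values that did not pass. Slc11a2, the iron importer DMT1, was 1904 to 62729 (median 26329) in SI10 and 1144 to 14917 (median 3754) in SI20 (-2.54 ± 0.62, adjusted p = 0.121). Cybrd1, the ferric reductase of the brush border, was 1806 to 71887 (median 37053) in SI10 and 1303 to 11917 (median 3682) in SI20 (-2.49 ± 0.62, adjusted p = 0.126). Male tumour 19 held the lowest SI10 value of all 3 genes, 1904 for Slc11a2 and 1806 for Cybrd1. Without it both passed, at -3.13 and -3.08 (adjusted p = 0.00576 for each), and 4 of the 21 genes were then called. Leaving out the SI10 tumour that is lowest for a gene widens its difference, so these added calls are a description. Among the 20 genes of iron, calcium and vitamin handling, Fth1, the iron-storing ferritin heavy chain, was the second call besides Slc40a1, at 85943 to 178732 (median 140659) in SI10 and 47237 to 94560.3 (median 70873) in SI20 (-0.89 ± 0.17, adjusted p = 0.0299). Only 1 of the 10 SI20 tumours reached the SI10 range of Fth1. The fit without male tumour 19 called 4 of the 20, Cybrd1 and Slc11a2 having joined.

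The other proximal genes did not pass and differed in sign. Trpv6 and S100g, the calcium channel and the calcium-binding protein of the duodenum, had differences of -2.31 ± 0.93 and -1.42 ± 0.51 (adjusted p = 0.294 and 0.263). Lct, the lactase of the brush border, had the opposite sign, 58.6 to 6048 (median 1583) in SI10 and 1432 to 13198 (median 6697) in SI20 (2.61 ± 0.67, adjusted p = 0.14), as had Cyp2b10 at 1.59, Fabp1 at 0.61 and Rbp2 at 0.52. In all, 10 of the 21 proximal genes had a positive and 11 a negative difference.

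Of 18 distal small intestine genes, 15 were tested and 3 were higher in SI20, with none lower and a list median of 0.40. Osr2, an odd-skipped zinc-finger transcription factor, had the largest rise among the 46 genes (chr15:35296196-35303673, plus strand). Its level was 3.01 to 88 (median 16.3) in SI10 and 210.0 to 763 (median 551) in SI20, with no overlap, a 24.9-fold difference (4.64 ± 0.51, adjusted p = 0.000397). The highest SI10 value belonged to female tumour 23. Slc34a2, the sodium-phosphate cotransporter of the intestinal brush border (chr5:53195423-53229006, plus strand), was 61 to 239 (median 97.8) in SI10 and 297 to 1223 (median 649) in SI20 (2.65 ± 0.30, adjusted p = 0.000403). These groups did not overlap either, and female tumour 23 was again the highest of SI10. Naaladl1, a peptidase related to glutamate carboxypeptidase, was 92.8 to 799 (median 372) in SI10 and 564 to 4874 (median 1380.1) in SI20 (2.18 ± 0.40, adjusted p = 0.026), with 9 of 10 SI20 tumours above all of SI10. The same 3 genes were called without male tumour 19.

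The remaining distal genes did not pass. Nts, the peptide hormone neurotensin, was 5 to 47.1 (median 19.6) in SI10 and 20.9 to 332 (median 70.9) in SI20 (2.09 ± 0.46, adjusted p = 0.0857). Cubn, the ileal receptor for vitamin B12 bound to intrinsic factor, gave 1.80 ± 0.44 (adjusted p = 0.121) and Gcg, which encodes proglucagon, 1.09 ± 0.35 (adjusted p = 0.228). Slc10a2, the ileal bile acid importer, had 123 to 343 (median 144) in SI10 and 106 to 369.9 (median 215) in SI20 (0.19 ± 0.22, adjusted p = 0.692). None of the 7 tested genes of bile acid handling had an unadjusted p under 0.05, and their median was 0.03.

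The genes with the largest rises also included Slc5a12, Slc5a8, Slc23a1, Enpp7 and Pck1, which belong to none of the lists. Slc5a12, a low-affinity sodium-lactate cotransporter, was 0 to 33 (median 0.631) in SI10 and 27.4 to 200.0 (median 70.5) in SI20 (4.51 ± 0.73, adjusted p = 0.0128). In SI10, 5 tumours were below 1 and 2, male tumour 19 and female tumour 23, were at 15.8 and 33. Slc5a8, the high-affinity carrier of the same substrates, was 5.76 to 223 (median 53.6) in SI10 and 139 to 623 (median 309.9) in SI20 (3.0 ± 0.52, adjusted p = 0.0192). Slc23a1, a sodium-dependent vitamin C transporter, was 0.908 to 13.2 (median 8.23) in SI10 and 18.9 to 157 (median 79.1) in SI20 (3.20 ± 0.39, adjusted p = 0.00106), and its groups did not overlap. Enpp7, which breaks down dietary sphingomyelin, was 6.84 to 136 (median 36.2) in SI10 and 63.5 to 1678 (median 377) in SI20 (3.49 ± 0.58, adjusted p = 0.0173). Pck1, the enzyme that commits oxaloacetate to gluconeogenesis, gave 2.89 ± 0.52 (adjusted p = 0.0236), with female tumour 23 at 585 against at most 71.3 in the other SI10 tumours. These low-level genes also differed between clones of a tumour, by a median of 2.35 log2 units for Slc5a12 and 2.07 for Enpp7.

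The further genes with the largest rises were Pmp22, a tetraspan membrane protein best known from myelin, Guca2a, Padi3, a peptidylarginine deiminase, and Defa-ps6, a defensin pseudogene. Pmp22 was 253 to 1861 (median 1351) in SI10 and 2491 to 10427 (median 4692) in SI20 (2.38 ± 0.32, adjusted p = 0.0026). Guca2a, the hormone guanylin that drives fluid secretion, was 124 to 840.1 (median 589) in SI10 and 1067 to 4568 (median 1668) in SI20 (2.02 ± 0.28, adjusted p = 0.0026). Both separated the segments completely and both were called with any 1 tumour left out. Padi3 gave 2.25 ± 0.38 (adjusted p = 0.0173) and Defa-ps6 2.34 ± 0.46 (adjusted p = 0.0401), the last at no more than 78.8 normalised counts in SI10. The call of Defa-ps6 was lost without male tumour 19 (adjusted p = 0.065).

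Among genes that were higher in SI10, Slc16a9, of the monocarboxylate transporter family, was 91.5 to 829 (median 221) in SI10 and 1.81 to 138 (median 9.21) in SI20 (-3.97 ± 0.70, adjusted p = 0.0214). Scarb1, the receptor SR-BI that takes up cholesterol from HDL, was 1805 to 3887 (median 2976) in SI10 and 1266 to 1982 (median 1473) in SI20 (-0.92 ± 0.12, adjusted p = 0.0026) and was called with any 1 tumour left out. It was the only call among 22 genes of lipid absorption, whose median was 0.24, so its direction was opposite to that of the list median. Papss2, which makes the sulphate donor PAPS, was 15296 to 46767 (median 36347) in SI10 and 7288 to 24435 (median 11212) in SI20 (-1.34 ± 0.26, adjusted p = 0.0375), and Chst10, a sulphotransferase that uses this donor, gave -1.63 ± 0.31 (adjusted p = 0.0286). Without male tumour 19, Chst10 gave -1.46 and was not called (adjusted p = 0.056). Ecel1, a peptidase related to endothelin-converting enzyme that lies on chromosome 1 like Akp3 (chr1:87075377-87084243, minus strand), gave -2.39 ± 0.38 (adjusted p = 0.0122). Clec7a, the beta-glucan receptor dectin-1 of myeloid cells, gave -0.98 ± 0.18 (adjusted p = 0.0286) and, without male tumour 19, -0.94 (adjusted p = 0.056).

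The 2 calls among 15 tested genes of the Reg family and antimicrobial response went in opposite directions. Reg1, a secreted lectin of the regenerating family, was 6252 to 33662 (median 14219.6) in SI10 and 996 to 8037 (median 2159) in SI20 (-2.44 ± 0.43, adjusted p = 0.0222). Reg4, a member found in secretory cells, was 1041 to 3496 (median 1421) in SI10 and 3028 to 6147 (median 4210.2) in SI20 (1.23 ± 0.25, adjusted p = 0.0492), and its call was lost without male tumour 19 (adjusted p = 0.0944). Reads of near-identical Reg and defensin genes can be divided between copies by the authors' quantification, so that single members of these families are uncertain.

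Paneth cell genes gave the highest median of any list with at least 8 members tested, 1.29, but no member was called. All 23 tested had a positive difference and 15 had an unadjusted p under 0.05, against 8.44% of all genes. Defa17, an alpha-defensin, was 612 to 3008 (median 1175) in SI10 and 1003 to 18507 (median 4076) in SI20 (1.69 ± 0.40, adjusted p = 0.113). Clps, colipase, was 295 to 675 (median 369.8) in SI10 and 421 to 2168 (median 734) in SI20 (1.0 ± 0.26, adjusted p = 0.143). Most members of this list are defensins of 1 gene cluster and are not independent of each other. Without male tumour 19 the median was 1.45, again with no call. In bulk RNA, more cells of a type and more RNA per cell cannot be told apart.

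Goblet cell genes had a median of 0.60, with no call among 15, 8 at an unadjusted p under 0.05 in the SI20 direction and 1 in the other. Atoh1, the transcription factor of the secretory lineage, was 79.5 to 176 (median 138) in SI10 and 151 to 263 (median 199) in SI20 (0.60 ± 0.15, adjusted p = 0.14), and Spink4 gave 0.99 ± 0.27 (adjusted p = 0.161). Enteroendocrine genes had a median of 0.18 and tuft cell genes of -0.16, both without a call.

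Genes of antigen presentation gave a single call. All 8 tested MHC class II genes had negative differences, from -1.10 to -0.43 with a median of -0.84, and 6 had an unadjusted p under 0.05 against 5.9% of all genes. H2-DMb1, a chain of the peptide exchange factor for class II molecules, was 168 to 561 (median 372) in SI10 and 90.6 to 227 (median 151) in SI20 (-1.10 ± 0.19, adjusted p = 0.0192). Without male tumour 19, H2-DMa, its partner chain, was called too, at -0.81 (adjusted p = 0.0103). The interferon response list had a median of -0.47, no call and 11 of 25 genes at an unadjusted p under 0.05 in the SI10 direction. Psmb8, a subunit of the immunoproteasome, was 920.1 to 1539 (median 1148) in SI10 and 533 to 957 (median 801) in SI20 (-0.64 ± 0.13, adjusted p = 0.0553). Cxcl9, an interferon-gamma-induced chemokine, gave -2.46 ± 0.61 (adjusted p = 0.125) and passed without male tumour 19 (-2.86, adjusted p = 0.0417). In undivided tumours Cxcl9 differed by -0.10 and Psmb8 by -0.71, and the median of the interferon list was -0.43.

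The lists of immune cell markers gave no call. Clec7a, the receptor of myeloid cells described above, is on none of these lists and was called. The 16 tested T cell and cytotoxic lymphocyte genes had a median of -0.43 with 15 negative differences, and the 15 macrophage and neutrophil genes a median of -0.48 with 12 negative, neither with a call. The summed level of the macrophage and neutrophil list was 2931 to 9879 in SI10 and 2429 to 5938 in SI20, and that of the T cell list 2036 to 3468 in SI10 and 931 to 3230.0 in SI20, in normalised counts per tumour. Adgre1, which encodes the macrophage antigen F4/80, was 65.8 to 204 (median 91.6) in SI10 and 20.6 to 104 (median 47.5) in SI20. Lck, a T cell kinase, was 120.3 to 197 (median 139.9) and 71.8 to 154 (median 109). Neither passed in limma, at -1.07 ± 0.32 for Adgre1 (adjusted p = 0.193) and -0.46 ± 0.15 for Lck (adjusted p = 0.228). In undivided tumours they differed by 0.05 and -0.37. Of the macrophage and neutrophil genes 3 were positive, among them the macrophage marker Mrc1 at 0.67 ± 0.28 (adjusted p = 0.31). The part of immune cells in the MHC class II and interferon values was not tested.

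**Figure D2:**
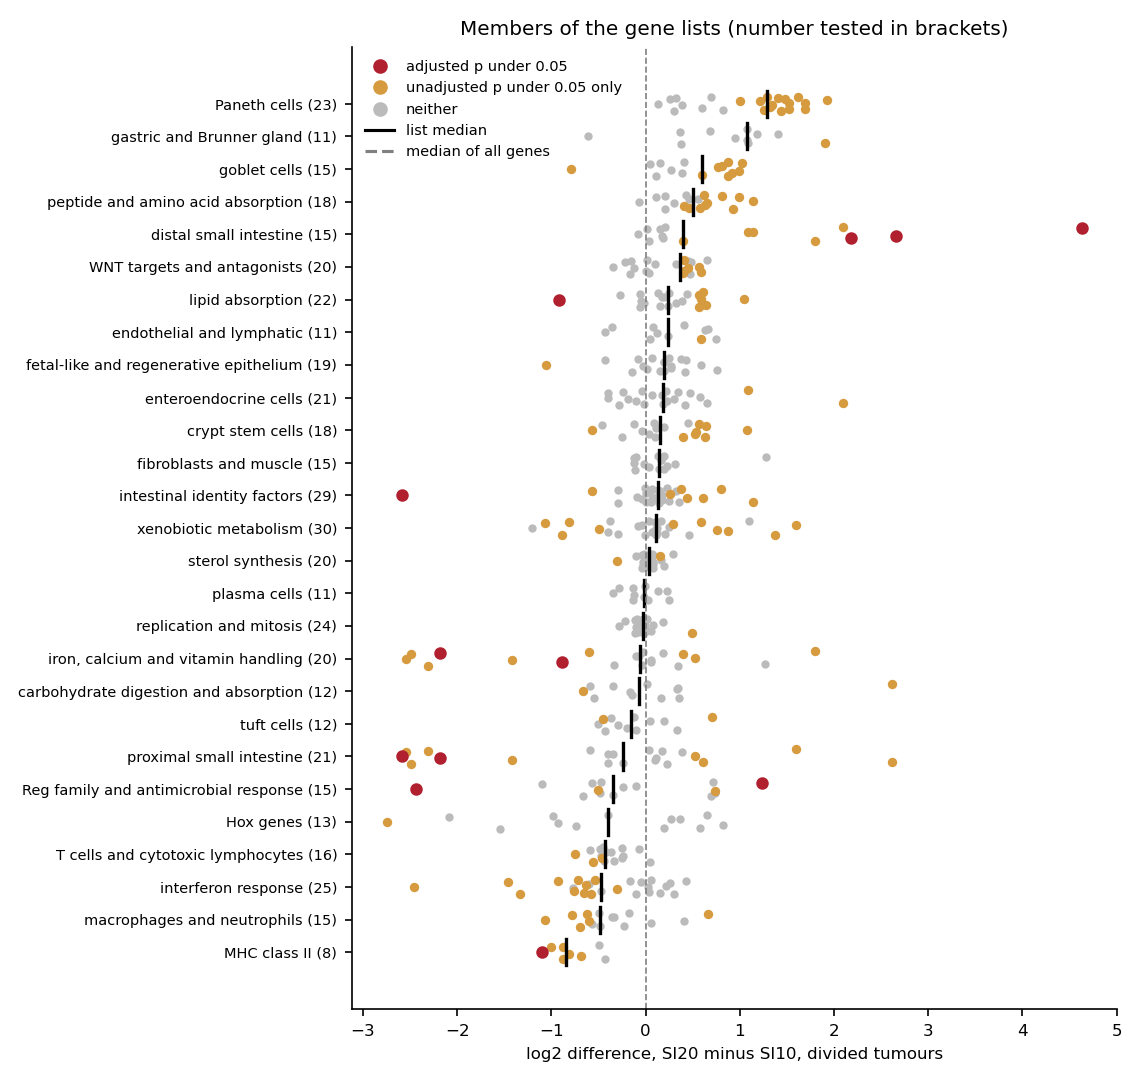
Log2 differences, SI20 minus SI10, of the tested members of each gene list with at least 8 members tested, with the list median as a black bar and the median of all genes as a dashed line. Red points passed an adjusted p of 0.05, and lie in the proximal, distal, identity factor, iron, lipid, Reg and MHC class II lists, while the Paneth list has the rightmost median without a red point.

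The nutrient lists other than those of iron and lipid handling had no called member. Peptide and amino acid absorption had a median of 0.51 and 17 positive differences among 18 genes. At an unadjusted p under 0.05, 10 were higher in SI20, against 8.44% of all genes, falling to 5 without male tumour 19. Enpep, the glutamyl aminopeptidase of the brush border, was 1615 to 6451 (median 2147) in SI10 and 3744 to 9179 (median 5608) in SI20 (1.14 ± 0.26, adjusted p = 0.0941), and Slc36a1, a proton-coupled amino acid carrier, gave 0.46 ± 0.12 (adjusted p = 0.143). No call was made either for carbohydrate digestion (median -0.07), xenobiotic metabolism (median 0.11) or sterol synthesis (median 0.04). The smallest p-values among the xenobiotic genes were those of Ces2a, a carboxylesterase, at 1.37 ± 0.34 (adjusted p = 0.125) and Ugt1a6a, a glucuronosyltransferase, at -1.07 ± 0.29 (adjusted p = 0.158).

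Tumour cell programmes also gave no calls. Crypt stem cell genes had a median of 0.15 and WNT targets and antagonists of 0.36. At an unadjusted p under 0.05, 7 of 18 and 6 of 20 were higher in SI20, against 8.44% of all genes. In the other direction there was 1 stem cell gene and no WNT gene. Without the male SI10 tumour that stood apart, 5 and 4 were higher, against 928 of all 16423 genes. The medians were then 0.11 and 0.18. These lists share members, Lgr5 among them, and are not independent of each other. Lgr5, the stem cell marker and WNT target, was 566 to 1822 (median 648) in SI10 and 609 to 2662 (median 987) in SI20 (0.45 ± 0.23, adjusted p = 0.361). Replication and mitosis genes had a median of -0.02, and fetal-like and regenerative genes of 0.20. Of 29 intestinal identity factors, Pdx1 was the only call, and Gata4, a factor of the proximal intestine, was 3099 to 5774 (median 5140.1) in SI10 and 4074 to 7654 (median 5570.0) in SI20 (0.17 ± 0.14, adjusted p = 0.542).

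Lists of other tissue components were examined in the same way. Fibroblast and muscle genes had a median of 0.14, endothelial genes of 0.23, plasma cell genes of -0.02 and the 4 tested B cell genes of 0.17. Genes of the stomach and Brunner glands had a median of 1.08, which fell to 0.47 without male tumour 19, and their summed level was 1321 to 52265 in SI10 and 8593 to 68451 in SI20. Only 2 pancreas and 2 adipose genes were tested, with medians of 0.55 and 0.05. None of these lists had a call.

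Hox genes, which mark position along the body axis, gave no call between the segments. Of 13 tested, 0 were called in limma and 1, Hoxa10, had an unadjusted p under 0.05, at -2.75 ± 0.92 (adjusted p = 0.238). That value was set by male tumour 19, and without this tumour Hoxa10, Hoxa11 and Hoxb9 fell below the filter on low values. Of the 10 Hox genes then tested, 2 were lower at an unadjusted p under 0.05, against 837 of all 16423 genes. They were Hoxb2 at -1.50 and Hoxb3 at -1.17, neither of them called in limma (adjusted p = 0.139 and 0.369). In clones a and b of male tumour 19, Hoxa9 was at 1575 and 956 normalised counts, Hoxa11 at 536 and 328 and Hoxb9 at 224 and 176. The highest clone mean of the other 16 tumours was 301 for Hoxa9, 2.78 for Hoxa11 and 8.6 for Hoxb9. Among the 61 other single libraries of the series, the highest was 666 for Hoxa9, 162 for Hoxa10, 38.9 for Hoxa11 and 167 for Hoxb9. For Hoxa7 it was 1466, above the 870 and 763 of the clones of male tumour 19. Male tumour 19 was at the low end of SI10 for iron uptake genes and Akp3, yet its Pdx1 level, 499, was above all 10 SI20 tumours.

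**Figure D3:**
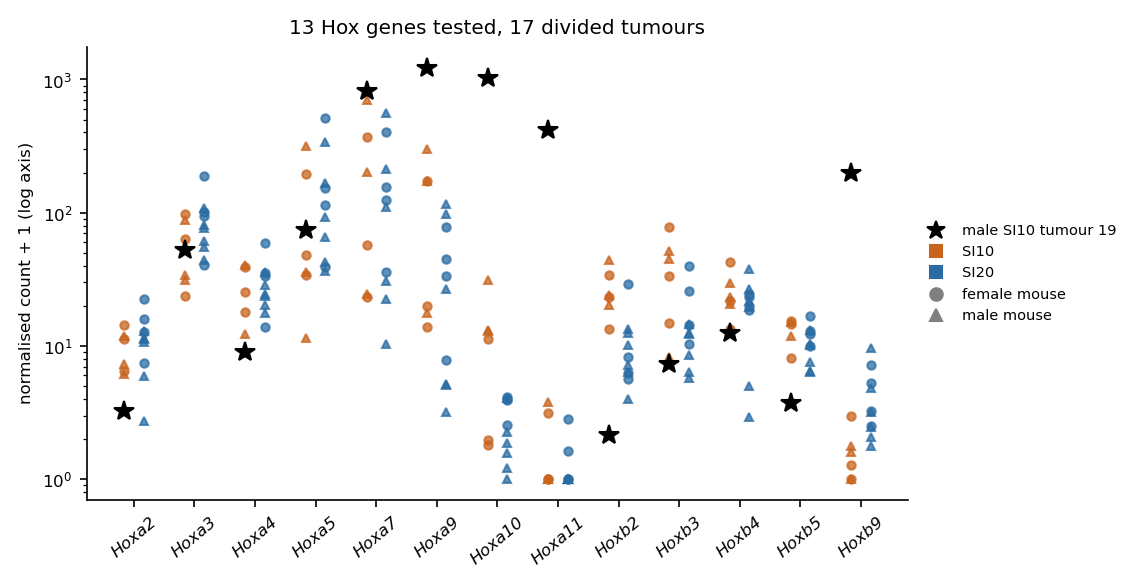
Normalised counts plus 1 on a log axis for the 13 Hox genes tested, in the 7 SI10 (orange) and 10 SI20 (blue) divided tumours, with male SI10 tumour 19 as a black star. This tumour is the highest of 17 for Hoxa7, Hoxa9, Hoxa10, Hoxa11 and Hoxb9, whereas the other tumours of the segments overlap for every gene.

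The segment difference was next compared between the mice. In the interaction of segment and mouse, 0 of 16436 genes passed in limma, with 761 at an unadjusted p under 0.05 and a lowest adjusted p of 0.872. Among the 46 genes, 1 had an unadjusted p under 0.05 for the interaction, Reg1, with differences of -3.64 in the female and -1.58 in the male mouse. Pdx1 differed by -2.84 and -2.40, and Osr2 by 4.84 and 4.49. The female mouse alone, with 3 against 4 tumours, gave 0 calls in limma, although 805 genes had p below 0.05 before adjustment. The fit of the male mouse by itself gave 6 calls.

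The a and b clones were also fitted one at a time, which gave 38 calls in the a clones, 13 of them higher in SI20, and 18 calls in the b clones, 16 of them higher. As the 46 genes were chosen on the mean of the same clones, their values in each clone are a description and no independent support. All 46 genes had the same sign in the a clones and in the b clones, and 44 had an unadjusted p under 0.05 in both, although the a and b clones of 1 tumour share its segment, mouse and dissection. Of the 46, 21 were called in the a clones alone and 18 in the b clones alone. The median gap between the clones of a tumour was below the segment difference in 45 of the 46 genes, with a median of 0.53 against 1.63 log2 units. The exception was Ackr3, an atypical chemokine receptor, at 1.04 between clones and -0.87 between segments.

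The undivided tumours offered libraries that the comparison had not used, from the same mice. All 46 genes had the same sign there as in the divided tumours, against 66.3% of the 16205 genes in both fits. Of the 46, 36 had an unadjusted p under 0.05 there in limma, against 1258 of all 16511 genes tested. The undivided difference was a median of 0.958 times the divided one, from 0.199 (Tiam1) to 1.64 (Dcaf17). Akp3 was 1023 to 415031 (median 102352) in undivided SI10 and 102 to 48714 (median 536) in undivided SI20 tumours, a difference of -5.34 ± 0.90 (adjusted p = 0.014). Pdx1 differed by -3.05 ± 0.61 (adjusted p = 0.0313), Osr2 by 4.67 ± 0.90 (adjusted p = 0.0278) and Slc34a2 by 2.62 ± 0.67 (adjusted p = 0.158). Cybrd1 and Slc11a2, which had not passed in the divided tumours, did so here at -3.63 ± 0.60 (adjusted p = 0.014) and -2.76 ± 0.50 (adjusted p = 0.0221).

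In the undivided tumours 28 of 16511 genes were called, 0.17%, 3 higher and 25 lower in SI20. The lists shared 10 genes, 21.7% of the divided and 35.7% of the undivided calls. Of 26 undivided calls tested in the divided tumours, all 26 had the same sign and 21 an unadjusted p under 0.05, against 2358 of all 16436 genes. No gene of 16494 passed the interaction of segment and dissection in limma, and 267 had an unadjusted p under 0.05, 0 of them among the 46. List medians were less stable. In undivided tumours the medians were -0.63 for enteroendocrine genes, 0.59 for the Reg family and antimicrobial list, -0.41 for xenobiotic metabolism and 0.30 for replication and mitosis, against 0.18, -0.34, 0.11 and -0.02 in divided tumours. The undivided medians also included peptide absorption at 0.12, macrophages and neutrophils at 0.18, MHC class II at -0.69 and Paneth cells at 0.88. Fibroblast and muscle genes had an undivided median of 0.76 and endothelial and lymphatic genes of 0.54, against 0.14 and 0.23 in divided tumours.

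**Figure D4:**
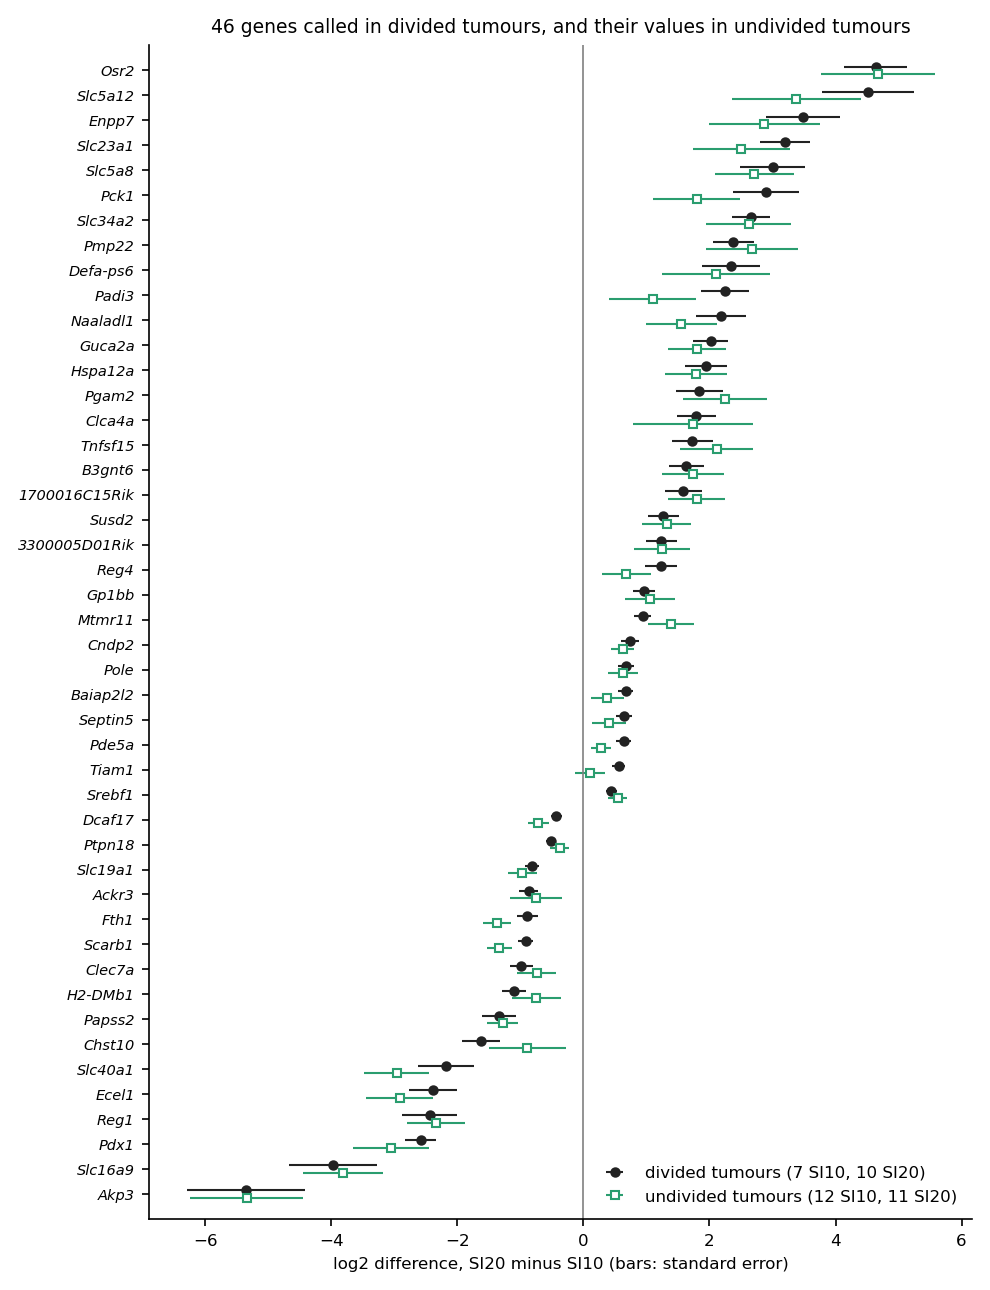
Log2 differences, SI20 minus SI10, with standard errors for the 46 genes called in divided tumours (filled circles) beside the same genes in undivided tumours (open squares). All 46 pairs lie on the same side of 0, from Akp3 at -5.36 to Osr2 at 4.64 in divided tumours.

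Libraries left out of the comparison were then placed by the 46 genes on a scale from 0, the SI10 mean of their own mouse, to 1, its SI20 mean, as the median over genes. This is a description, since the genes were chosen by the segment difference. Undivided SI10 tumours lay between -0.86 and 0.68 (median -0.11, n = 12) and undivided SI20 tumours between -0.10 and 1.34 (median 0.84, n = 11), with 1 tumour of each group on the far side of 0.5. The 4 clone libraries of the SI30 tumours lay at 0.86, 1.20, 1.20 and 1.31. Pdx1 in these single libraries was at 14.5, 30.9, 33.2 and 70 normalised counts, below the clone mean of every SI10 and SI20 tumour. Tumour 22, with mixed labels, lay at 0.39 in the clone labelled SI20 and at 0.29 in the clone labelled SI10. Its Pdx1 was 662 in the clone labelled SI20 and 463 in the other, both above the SI20 range of clone means. Slc34a2 was 1298 and 473, both above the SI10 range of clone means.

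**Figure D5:**
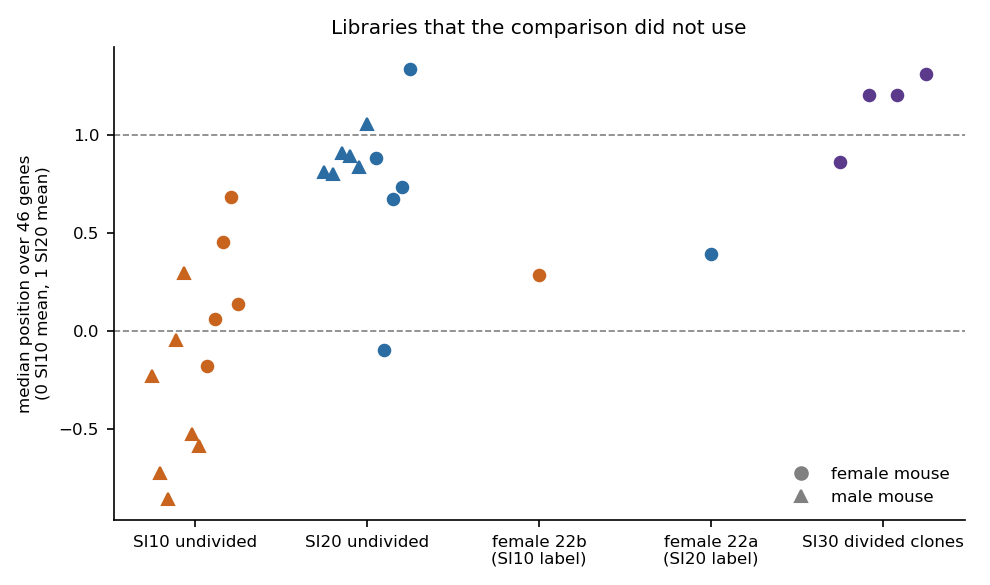
Median position over the 46 genes, from 0 (SI10 mean of the same mouse) to 1 (SI20 mean), of the libraries that the comparison did not use, circles for the female and triangles for the male mouse. Undivided SI20 tumours sit near 1 with 1 exception at -0.10, the SI30 clones lie between 0.86 and 1.31, and both clones of tumour 22 lie below 0.5.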

How the data were processed

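The authors trimmed paired-end reads of poly(A) RNA libraries with Trimmomatic 0.39, quantified them with Salmon 1.9.0 against mouse transcripts of the GRCm39 build and normalised the estimated counts, naming DESeq2. STAR 2.7.7a, Picard 2.27.3 and FastQC 0.11.9 served quality control. The deposited values are normalised counts that are not whole numbers and were treated as a signal. Whether transcript length entered the scaling is not stated. Levels are therefore compared within a gene, and the summed levels of a list add its genes as they stand. The scaling itself is not described in the sources used here, and the step between low values served as an estimate of depth.

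For each tumour the log2(value + 1) values of clones a and b were averaged. The 16436 of 24766 genes whose mean over the 34 libraries reached 10 were fitted in limma 3.58.1 (R 4.3.3), with eBayes and a trend, segment as the effect and mouse as a covariate. Adjusted p-values are Benjamini-Hochberg values over all genes tested, with a threshold of 0.05. Undivided tumours and both interactions were fitted likewise, and library quantities were compared by an exact two-sided test over 7350 permutations within mouse. Standard errors are limma's moderated ones. In data simulated for this comparison with 16436 genes, of which 200 were changed by 2 log2 units, 190 (95%) were recovered, and 156 of 200 (78%) at 1 log2 unit. The simulation drew normal noise for each gene independently and held no tumour that stood apart. Its shares may therefore not hold for the real tumours.

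The tumours, though picked by label, and the 31 gene lists were chosen with earlier results of these data known. Genes were named by rule: tested proximal, distal and Hox genes, the 12 largest called differences each way with the same sign in both mice, and per other list the called members (at most 5) or, without a call, the 2 smallest p-values. Ptpn18, Ackr3, Tiam1, Dcaf17, Lgr5, Clu, H2-DMa, Mrc1 and the further genes of the plots were named after their values were seen. Of the 46, 2 had predicted-gene symbols. Gene positions are from Gencode M39 on GRCm39, in which 24575 of the gene identifiers were found, and promoters from RefSeq on GRCm38.p6. Alternatives covered the pseudocount, filter, scaling, clones, mice and each tumour in turn. A gene that the rule named is not reported here. The fits without male tumour 19 for gene lists were added after the data were seen.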

Additional observations from a re-analysis of the deposited data

Results flagged for a closer look

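Single tumours far from the rest of their group were looked for among 109 named genes in both segments, 218 groups in all, of which chance flags about 1 in 20. There were 17 such values, and 12 came from male SI10 tumour 19. This tumour was the lowest of 7 SI10 tumours for Slc40a1 (1552 normalised counts), Gata4 (3099), Cybrd1 (1805.5), Slc11a2 (1904), Clec2h (1372), Hoxb2 (1.16), Atoh1 (79.5), Avil (998.5), Prox1 (693) and Lyve1 (26.1). It was the highest for Hoxa11 (419.6) and Hoxb9 (198), with the next SI10 tumour at 2.78 and 1.97. Lyve1 marks lymphatic vessels, whereas Prox1 belongs to both the lymphatic list and the list of WNT targets. The next SI10 tumour was at 2621 for Prox1 and 111 for Lyve1, and which cells held Prox1 was not tested. The summed endothelial and lymphatic list, which includes Prox1, was 3267 to 18987 in SI10 and 10307 to 16176 in SI20. The other flagged values were Fabp1 in female tumours 20 (8715, lowest of SI10) and 28 (15513, lowest of SI20), Hoxa11 in female SI20 tumour 24 (1.84, highest), and the stromal genes Grem1 (1279) and Vim (4990), highest of SI20 in female tumour 27. Of the genes flagged, Slc40a1 was the 1 with a call between the segments.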

How the results depend on the processing

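The count of 46 genes stayed between 37 and 53 with another pseudocount, filter, scaling or trend setting, with linear averaging of clones and in the a clones alone, which however split the other way, with 13 of 38 higher in SI20. It was 18 in the b clones alone, 29 without the mouse covariate, 125 with single libraries and the tumour as a random block, 6 in the male mouse alone and 0 in the female mouse alone, where 3 SI10 tumours remained. Leaving out 1 tumour gave 13 to 215 calls, lowest without female tumour 19 and highest without female tumour 23, whose levels of Osr2, Slc34a2 and Pck1 were the highest of SI10. The cause of these shifts was not tested. The direction of the 46 genes was the same in these fits wherever they were tested. These fits reuse tumours on which the genes were chosen, so this too is a description. Of the 25 called genes named, limma lost the call 80 times over the other settings and 105 times over the single-tumour fits, without a reversal. The undivided count of 28 ranged from 20 to 29, and both interactions gave 0 calls under each alternative run. In the b clones alone, 3 library quantities that did not separate the segments changed sign, to 0.323 percentage points for the mitochondrial share, 0.0757 log2 units for estimated reads and 0.000401 for the sum of values. No paired analysis was possible because tumours of the segments share no replicate number that links them. With 2 mice, differences between mice cannot be told from those between sexes.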
